A study of Mus musculus with 13 samples.

Results

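The 10 genes described here encode the chains and helpers of MHC class II antigen presentation, and they were chosen by symbol: the chains H2-Aa, H2-Ab1 and H2-Eb1, the invariant chain Cd74, the peptide exchange genes H2-DMa, H2-DMb1 and H2-DMb2, their inhibitors H2-Oa and H2-Ob, and the coactivator Ciita. All 10 were listed among the 15213 genes of the table. RNA sequencing covered 10 mammary tumors from 6 females with the label MtTA Teto-TSG101wt, in which the MMTV-tTA driver switches on a TetO-controlled wild-type Tsg101 transgene in the mammary epithelium, and from the mammary glands of 3 wild-type FVB females. All transgenes were on the FVB/N background, and the labels give no ages. A single tumor came from each of 3 of these females, 2 tumors from each of 2 others and 3 tumors from the last, so the tumors were not all independent. No gland carried the driver or the transgene. Levels are given as normalized cpm, which are reads of a gene relative to the size of its library after a further scaling factor.

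MHC class II molecules are pairs of an alpha and a beta chain that show peptides from the endosomes to CD4 T cells. The invariant chain guides the newly made pair to the endosome, where proteases trim it down to a short stub in the groove. The H2-DM dimer then exchanges that stub for a peptide, and the H2-O dimer, which is made mainly by B cells and some dendritic cells, holds H2-DM back. Transcription of nearly all these genes depends on Ciita, which does not bind DNA itself but docks onto a factor complex at paired X and Y boxes close to the start of each gene. Dendritic cells, B cells and many macrophages make class II constantly, and epithelial cells can be brought to make it by interferon gamma.

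Except for Cd74 and Ciita, the genes lie together in the class II region of the H2 complex, between H2-Oa and H2-Eb1 at chr17:34092379-34316674 (GRCm38.p6). Ciita lies at chr16:10480014-10531064. Promoter sequences from 250 bases before to 50 bases after a listed start were found for 7 of the 10 genes in RefSeq (GRCm38.p6). H2-Ab1, Cd74 and Ciita had no entry. The stretches that hold the letters of both boxes are shown because these genes share one coactivator while their levels behaved differently. The capitals mark AAC, a part of the X box, and GATTGG, the inverted CCAAT of the Y box, and each stretch reads 5′ to 3′ on the strand of its gene.

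H2-Aa, minus strand, chr17:34287859-34287916: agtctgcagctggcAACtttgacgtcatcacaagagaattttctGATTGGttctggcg

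H2-Eb1, plus strand, chr17:34305764-34305820: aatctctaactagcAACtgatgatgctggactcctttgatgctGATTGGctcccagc

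H2-DMb1, plus strand, chr17:34153085-34153142: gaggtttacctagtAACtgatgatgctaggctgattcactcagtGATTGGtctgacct

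H2-DMb2, plus strand, chr17:34145114-34145171: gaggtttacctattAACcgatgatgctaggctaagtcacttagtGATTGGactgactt

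H2-Oa, plus strand, chr17:34092291-34092348: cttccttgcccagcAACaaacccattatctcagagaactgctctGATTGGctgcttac

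H2-Ob, plus strand, chr17:34238806-34238860: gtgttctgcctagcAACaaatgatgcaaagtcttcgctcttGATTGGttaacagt

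In all 6 stretches AAC was followed by 24 to 27 bases and then by GATTGG, and the first base of GATTGG lay between 44 and 91 bases before the start. Neither of the listed starts of H2-DMa had this spaced pair in its window. The spacing was taken from these promoters after they had been read. On the strand of the gene, 0.393% of all 32851 promoters in the table held the same spaced pair, and 0.913% held it on either strand. GATTGG alone was present in 8.71% of the promoters on the strand of the gene. A match of letters is a description and not evidence that a factor was bound.

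The libraries differed in their levels of leukocyte marker genes. Glands 1 and 3 had summed B cell genes (10 genes) of 393.1 and 383.8 normalized cpm, against 7.59 in gland 2, and summed T cell genes (10 genes) of 486.1 and 460.8, against 22.0 in gland 2. Of 5 lymph node stroma genes, 3 chemokines showed the same split: in glands 1, 2 and 3 Ccl21a had 92.2, 0.258 and 50.5 normalized cpm, Ccl19 34.8, 0 and 33.4, and Cxcl13 58.1, 0 and 43.3. The other 2 did not, with 9.51, 17.7 and 10.2 for Madcam1 and 17288, 18562 and 32875 for Glycam1. Among the tumors, tumor 1 held 153.2 normalized cpm of B cell genes, and the others between 4.002 and 18.7. The totals ran from 6176269 to 16835397 reads in the tumors and from 11672487 to 23889042 in the glands. Tumor 9 had 27.4% of its reads on the ribosomal RNA precursor Rn45s, and no other library had more than 9.32%. Adipocyte genes (6 genes) summed to 888 to 1739 normalized cpm in the glands and to 14.1 to 92.7 in the tumors. Tsg101 itself had a median of 63.4 normalized cpm in the tumors (range 49.9 to 101) and values of 45.6, 53.0 and 61.0 in glands 1, 2 and 3, so that the groups overlapped.

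The transcripts of the class II chains and of Cd74 did not differ between tumors and glands past the test, whereas Ciita and H2-Oa were lower in the tumors. With a call set at an adjusted p of 0.05 and a change of more than 2-fold (limma), Ciita fell by 1.25 on the log2 scale and H2-Oa by 2.05, and the other 8 genes did not pass. Of the 8 class II genes that passed the filter on low values, 1 was called lower and none higher, where 6.99% of the 11795 genes tested were called lower and 10.2% higher. Of the 2 genes that the filter left out, H2-Oa and H2-Ob, 1 was called lower without the filter, where 10.1% of all 15213 genes were called lower and 10.5% higher. No class II gene was called higher by edgeR or DESeq2 either, and at an unadjusted p of 0.05 the limma fit had 4 lower and 0 higher, where 18.2% of the genes past the filter were lower and 20.0% higher at that p, and 20.8% of all listed genes were in each direction. The median log2 fold change was -0.45 over the 10 genes, against 0.01 over all listed genes. In tissue RNA, fewer cells of a type and less RNA per cell cannot be told apart.

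**Figure D1:**
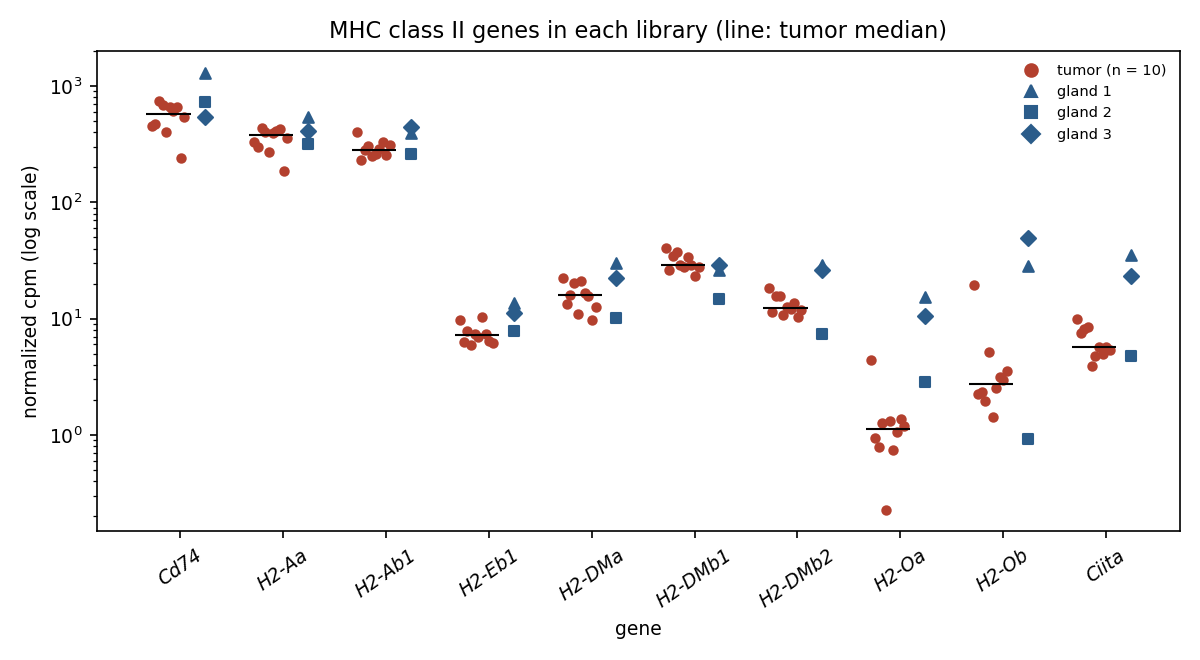
Normalized cpm (log scale) of each MHC class II gene in the 10 tumors (circles, with the median as a line) and in glands 1, 2 and 3 (triangle, square and diamond). H2-Aa, H2-Ab1 and Cd74 sit at 186 normalized cpm or more in every library, and H2-Oa, H2-Ob and Ciita are highest in glands 1 and 3.

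Cd74, the invariant chain, had 243 to 740.0 normalized cpm in the tumors (median 576) and 1308, 736 and 543 in glands 1, 2 and 3. Gland 1 stood above every tumor, and glands 2 and 3 were inside the tumor range. The change was -0.62 ± 0.33 (log2, SE of limma, 10 tumors and 3 glands), with a limma adjusted p of 0.186 and a 95% interval from -1.33 to 0.09. H2-Aa, the alpha chain of the I-A molecule, ranged from 186 to 434 in the tumors (median 377) and was 548, 316 and 409 in the 3 glands. All 10 tumors were below gland 1, but only 3 were below gland 2. Its change of -0.28 ± 0.26 had a limma adjusted p of 0.466 and an interval from -0.83 to 0.27. H2-Ab1, the beta chain of the same molecule, ranged from 233 to 403 (median 285) against 397, 261 and 441 in the glands. Its change of -0.31 ± 0.20 had a limma adjusted p of 0.283 and an interval from -0.73 to 0.12. The intervals of these genes reach down to 0.399-fold for Cd74, 0.563-fold for H2-Aa and 0.602-fold for H2-Ab1, so they do not show that the levels were alike.

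H2-Eb1, the beta chain of the I-E molecule, was low in every library, with 5.96 to 10.4 normalized cpm in the tumors (median 7.20) and 13.5, 7.80 and 11.1 in the glands. All 10 tumors lay below glands 1 and 3, and 7 of 10 lay below gland 2. The change of -0.47 ± 0.20 did not pass the test (limma adjusted p = 0.0923). Per kilobase of exon, the tumor median of H2-Eb1 was 4.31 normalized cpm, against 334 for H2-Aa, 235 for H2-Ab1 and 407 for Cd74. The glands kept the same order of Cd74, H2-Aa and H2-Ab1 in glands 1 and 2, while in gland 3 these genes had 383, 363 and 364 normalized cpm per kilobase and did not separate. H2-Ea, listed as the alpha partner of H2-Eb1, and the related beta gene H2-Eb2 were looked up after the values had been seen. H2-Ea ranged from 4.06 to 18.4 normalized cpm in the tumors and was 17.6, 2.53 and 29.1 in the glands. H2-Eb2 was 8.26 in gland 1, 7.19 in gland 3, 2.58 in tumor 1 and at most 0.455 in any other library, so that it followed the libraries with many B cell genes. The reads were mapped to a genome of another strain than FVB, and how far that lowers the counts of single H2 genes was not tested. Whether these mice make an I-E molecule cannot be read from transcript levels and was not tested.

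The H2-DM genes differed among themselves. H2-DMa, the alpha chain, ranged from 9.79 to 22.4 normalized cpm in the tumors (median 15.9) and was 30.2, 10.2 and 22.6 in the glands. H2-DMb1, the first of its beta chain genes, ranged from 23.4 to 40.8 (median 28.7) and was 26.2, 14.8 and 29.1. It was the only class II gene with a positive estimate, 0.42 ± 0.20 (limma adjusted p = 0.143). H2-DMb2, the second beta chain gene, ranged from 10.2 to 18.2 (median 12.4) and was 29.1, 7.43 and 25.97, with a change of -0.44 ± 0.30 (limma adjusted p = 0.314). In gland 2, H2-DMb1 and H2-DMb2 were lower than in any tumor, whereas in glands 1 and 3 H2-DMa and H2-DMb2 were higher than in any tumor. Of the stretches of 75 bases in the transcripts of H2-DMb1, 15.8% also occur in H2-DMb2, so that part of the reads could not be assigned to one of them with certainty. H2-DMa overlaps Brd2 on the opposite strand, and whether reads were counted by strand is not given in the sources used here.

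The inhibitors H2-Oa and H2-Ob, which pair with each other, had tumor medians of 1.03 and 0.780 normalized cpm per kilobase of exon, and of the class II genes only Ciita, with 0.690, had a lower one. H2-Oa ranged from 0.228 to 4.44 normalized cpm in the tumors, with a median of 1.12, and was 15.3, 2.84 and 10.6 in glands 1, 2 and 3. The lowest value, in tumor 5, rests on 2 reads and is under the 0.342 normalized cpm that 3 reads are worth in that library. In 9 of 10 tumors it was below all 3 glands, and the exception was tumor 1 with 4.44. The change was -2.05 ± 0.41 (limma without the filter, adjusted p = 0.00146), which is 0.241-fold on the scale of log2(value + 1). On the recovered reads it was -2.79 by edgeR and -2.80 by DESeq2, and with a pseudocount of 3 it was -1.42. H2-Ob ranged from 1.42 to 19.4, with a median of 2.74, and was 28.1, 0.929 and 49.0. The highest value was again that of tumor 1, and the next highest tumor had 5.13. All 10 tumors were below glands 1 and 3, and all 10 were above gland 2, so that the groups overlapped and the change of -1.69 ± 0.77 was not called (limma without the filter, adjusted p = 0.112). edgeR and DESeq2 on the recovered reads did call H2-Ob lower, with adjusted p of 0.0231 and 0.00918. Without tumor 1 limma also called H2-Ob lower, at -1.93 (adjusted p = 0.0475). It was not called without gland 1, at -1.17, or without gland 3, at -0.77. Tumor 1 was also the tumor with the most B cell genes, and the part of B cells in these levels was not tested.

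Ciita, the coactivator, ranged from 3.87 to 10.02 normalized cpm in the tumors, with a median of 5.68, and was 35.2, 4.80 and 23.0 in glands 1, 2 and 3. All 10 tumors were below glands 1 and 3, and 9 of 10 were above gland 2. Its fall of 1.25 ± 0.41 on the log2 scale had a limma adjusted p of 0.0348 and an interval from -2.13 to -0.37. The call was lost in 5 of the fits that leave out 1 library: without gland 1 the change was -0.71 (limma adjusted p = 0.298), without gland 3 it was -1.003 (0.119), and without tumor 5, 8 or 10 the adjusted p was 0.0529, 0.0529 and 0.0514. With 1 mean value per tumor-bearing female, Ciita was at -1.16 (limma adjusted p = 0.123) and H2-Oa at -1.95 (0.0132). Ciita overlaps Dexi on the opposite strand.

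Because the glands stood apart from each other, the tumors were also set against each gland alone, as a description. Against gland 1, all 10 tumors were lower for 8 of the 10 class II genes, where 26.9% of all listed genes had all tumors lower. Against gland 3 this held for 7 genes, where the share over all genes was 22.6%. Against gland 2, it held for none, where the share over all genes was 26.2%, and all 10 tumors were higher for 3 genes (H2-DMb1, H2-DMb2 and H2-Ob), where the share was 26.3%. The median of the 10 ratios of tumor median to gland was 0.484 for gland 1, 1.19 for gland 2 and 0.647 for gland 3. None of the 10 genes had all tumors below all 3 glands, and none had all tumors above them, where 10.3% and 11.4% of all genes did.

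With gland 2 as the only gland, a setting added after the data had been seen, no class II gene was called in either direction, where 7.82% of the genes past the filter were called higher and 5.28% lower, and 7.08% and 7.05% of all listed genes. Ciita was at 0.32 (limma adjusted p = 0.611), H2-Ob at 1.18 (0.327) and H2-Oa at -0.83 (0.307). H2-DMb1, at 0.997, had a limma adjusted p of 0.0301 and lay just under 2-fold. Leaving out tumor 1 as well, H2-Oa was at -0.97 (0.0823) and H2-DMb1 at 0.95 (0.0286). This fit has 1 gland, whose spread is taken to be that of the tumors. Without gland 2, 4 class II genes were called lower by limma: H2-Ob at -3.12 (adjusted p = 0.00116), H2-Oa at -2.67 (0.000178), Ciita at -2.03 (0.000243) and H2-DMb2 at -1.02 (0.00288). In that fit 6.55% of the genes past the filter and 10.1% of all listed genes were called lower. The calls therefore changed with the gland or glands that served as the control.

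**Figure D2:**
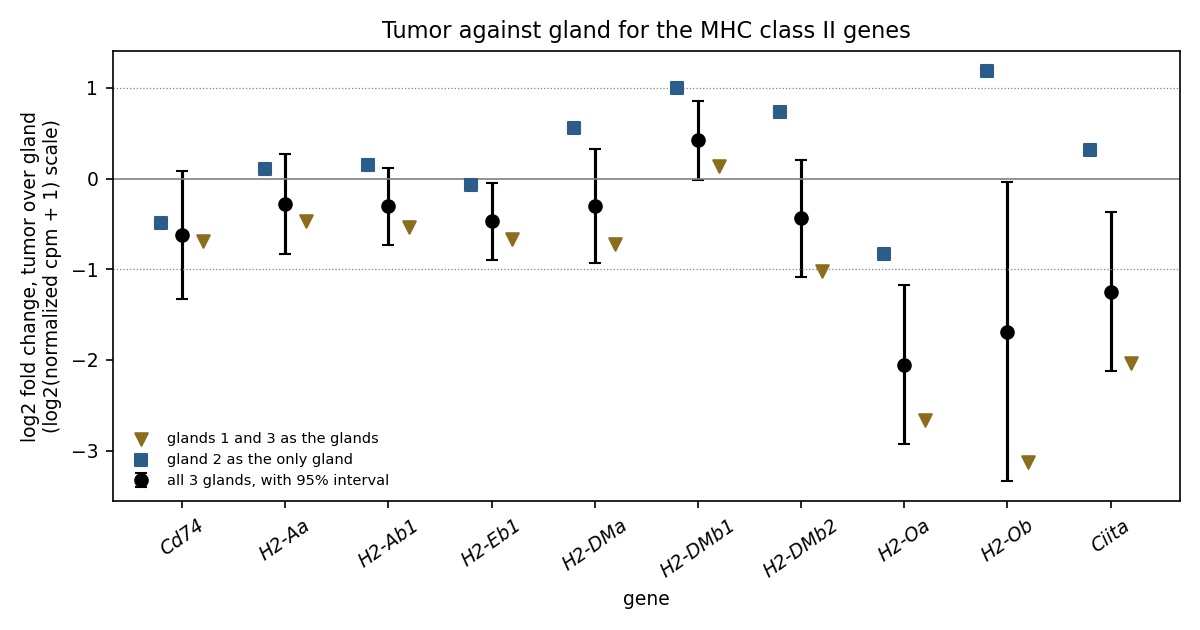
Log2 fold change of tumor over gland for each MHC class II gene, with all 3 glands (circles, bars of 95% intervals), with glands 1 and 3 as the glands (triangles) and with gland 2 as the only gland (squares). Dotted lines mark 2-fold. Ciita moves from -2.03 to 0.32 and H2-Ob from -3.12 to 1.18 between the choices of gland, while H2-Aa, H2-Ab1 and H2-Eb1 stay within 2-fold.

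Ratios between the normalized cpm of class II genes within a library do not depend on how that library was scaled, whereas the tested log2 ratios of values + 1 do in part for genes near 1 normalized cpm such as H2-Oa. Of 9 ratios, 5 differed between tumors and glands at an adjusted p of 0.05 (two-sided exact permutation of the libraries, Benjamini-Hochberg over the 9 ratios). H2-Oa to H2-DMa, a chain of the inhibitor over a chain of its target, was 0.0206 to 0.198 in the tumors (median 0.0650) and 0.506, 0.279 and 0.470 in glands 1, 2 and 3. The lowest ratio is that of tumor 5 with its 2 reads of H2-Oa. Every tumor was below every gland, gland 2 included. On the scale of log2(value + 1) the ratio was lower by a mean difference of -1.75, with an exact p of 0.0035, the smallest possible here, and an adjusted p of 0.0157, and with a pseudocount of 0.5 the difference was -2.06. H2-DMb2 to H2-DMb1 was 0.360 to 0.475 in the tumors (median 0.437) and 1.11, 0.503 and 0.891 in the glands, again without overlap (difference -0.86, exact permutation adjusted p = 0.0157). H2-DMb1 to H2-DMa was 1.33 to 2.60 in the tumors (median 2.01) and 0.870, 1.45 and 1.29 in the glands, a log2 difference of 0.72 (exact permutation adjusted p = 0.0210). These 3 ratios also passed with 1 mean value per tumor-bearing female, and all 3 passed without gland 2 (adjusted p = 0.0273 each, exact permutation test). With 10 tumors against 2 glands no exact p can be under 0.015. Without gland 1 none of them passed, with log2 differences of -1.64 for H2-Oa to H2-DMa and -0.63 for H2-DMb2 to H2-DMb1 (adjusted p = 0.0682 each, exact permutation test) and 0.52 for H2-DMb1 to H2-DMa (0.0909). Without gland 3 H2-DMb1 to H2-DMa did not pass, at 0.79 (exact permutation adjusted p = 0.0682).

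The ratio of H2-Ob to H2-DMb1 was 0.0505 to 0.476 in the tumors, with a median of 0.0981, and 1.07, 0.0629 and 1.68 in the glands (log2 difference -2.11, exact permutation adjusted p = 0.0441). Ciita to H2-Aa was 0.0116 to 0.0306 in the tumors, with a median of 0.0169, and 0.0641, 0.0152 and 0.0563 in the glands (log2 difference -0.97, exact permutation adjusted p = 0.0441). In both ratios gland 2 lay among the tumors, and both missed the threshold with 1 value per female, with adjusted p of 0.107 and 0.129 (exact permutation test). Both also missed it without gland 1, without gland 3 and without any single one of tumors 3, 5, 6, 7, 8 and 10. Over the fits that leave out 1 library, the difference ran from -3.26 (without gland 2) to -1.38 (without gland 3) for H2-Ob to H2-DMb1 and from -1.56 (without gland 2) to -0.63 (without gland 1) for Ciita to H2-Aa. Cd74 to H2-Aa was 1.31 to 1.70 in the tumors and 2.39, 2.33 and 1.33 in the glands, and it did not pass (log2 difference -0.34, exact permutation adjusted p = 0.0577). Without gland 3 it passed at -0.62 (exact permutation adjusted p = 0.0455), and without gland 1 or gland 2 it was -0.19 or -0.21 and did not. The ratio of both I-A chains, H2-Ab1 to H2-Aa, was 0.649 to 1.37 in the tumors and 0.724, 0.824 and 1.08 in the glands (log2 difference -0.03, exact permutation adjusted p = 0.923). H2-Eb1 to H2-Aa and H2-DMa to H2-Aa had log2 differences of -0.19 and -0.02 and did not pass either (adjusted p of 0.584 and 0.923, exact permutation test).

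**Figure D3:**
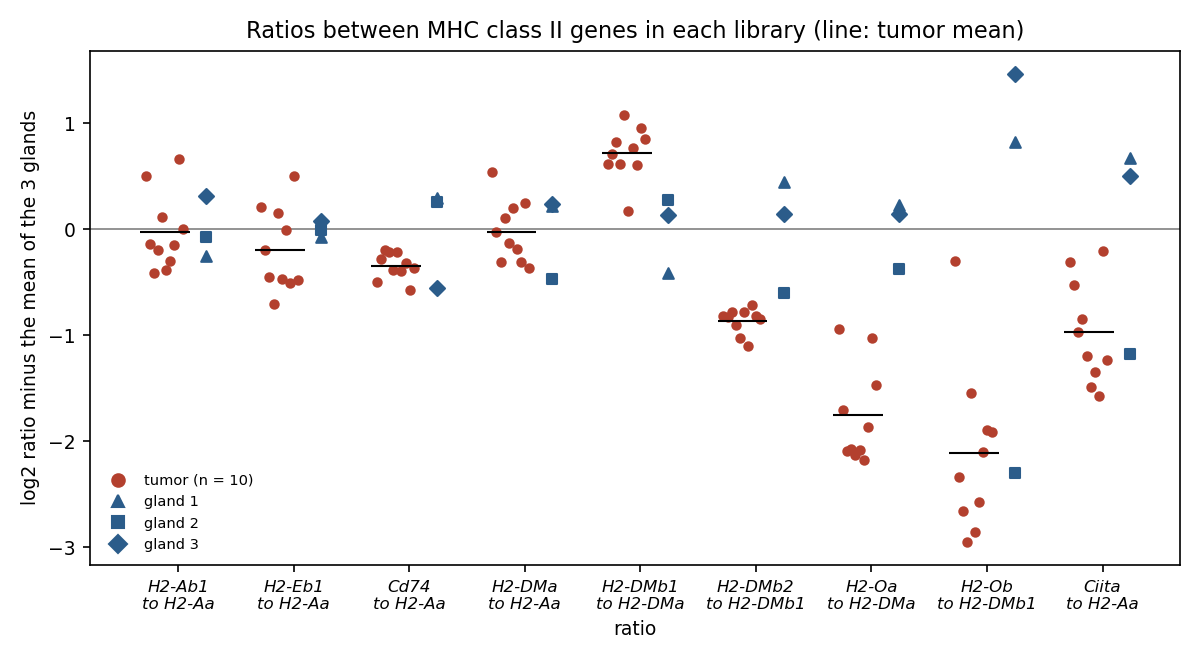
Log2 ratio (of values + 1) between pairs of MHC class II genes in each library, drawn as the difference from the mean of the 3 glands, for the 10 tumors (circles, with the mean as a line) and glands 1, 2 and 3. All 10 tumors lie below all 3 glands for H2-DMb2 to H2-DMb1 and for H2-Oa to H2-DMa, and gland 2 lies among the tumors for H2-Ob to H2-DMb1 and for Ciita to H2-Aa.

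Class II genes were next set against 8 pan-leukocyte genes, as the log2 level of each gene minus the mean log2 level of the list. That list summed to 178 to 434 normalized cpm in the tumors and to 1191, 214 and 961 in the glands. None of the 10 class II genes passed an adjusted p of 0.05 (exact permutation test, two-sided, Benjamini-Hochberg over the 10 genes), and 4 of them had an unadjusted p under 0.05, of which 3 were higher. On this scale most genes were higher in the tumors: over all listed genes the median difference was 1.05, against 0.58 over the 10 class II genes, and 51.2% were higher at an unadjusted exact permutation p of 0.05. H2-DMb1 came closest, with a mean of 0.13 ± 0.32 in the tumors (SD, n = 10) and -1.32 ± 0.85 in the glands (SD, n = 3), a difference of 1.46 (exact permutation adjusted p = 0.0699), and 9 of 10 tumors were above all 3 glands. H2-Oa was lower by a mean of -1.02 relative to the list (exact permutation adjusted p = 0.0816), with 9 of 10 tumors below all glands. Ciita differed by -0.21 (exact permutation adjusted p = 0.404), H2-Aa by 0.76 (0.140) and Cd74 by 0.42 (0.448). This outcome changed when single libraries were left out. Without gland 2, 7 genes (H2-Aa, H2-Ab1, H2-Eb1, H2-DMa, H2-DMb1, H2-DMb2 and Cd74) were higher relative to the pan-leukocyte genes, each with an adjusted p of at most 0.0433 (exact permutation test). All listed genes then had a median difference of 1.81, against 1.08 for the class II genes, and 83.8% of them were higher at an unadjusted exact permutation p of 0.05, so that 7 of 10 was not above the share over all genes. Without tumor 1, H2-DMb1 (1.44) and H2-Oa (-1.14) passed, and without tumor 9, H2-DMb1 (1.52) and H2-DMb2 (0.66) did, each with an exact permutation adjusted p of 0.0455. With a pseudocount of 0.5, H2-DMb1 passed at 1.48 (exact permutation adjusted p = 0.0350).

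**Figure D4:**
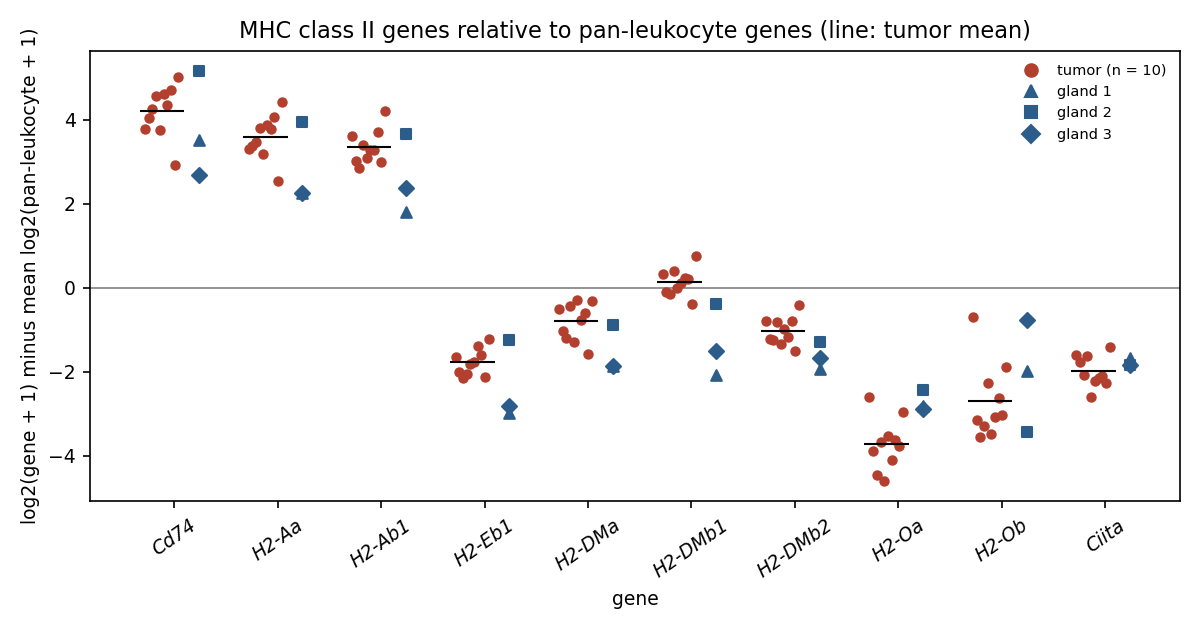
Log2(value + 1) of each MHC class II gene minus the mean log2(value + 1) of 8 pan-leukocyte genes in each library, for the 10 tumors (circles, with the mean as a line) and glands 1, 2 and 3. Glands 1 and 3 lie below the tumor mean for the chains, H2-DM genes and Cd74, gland 2 lies above it for H2-Aa, H2-Ab1, H2-Eb1 and Cd74, and the 3 glands are close to each other for Ciita (-1.66 to -1.84), inside the tumor range of -2.61 to -1.42.

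Among the tumors, the class II genes varied by 1.73-fold (H2-Ab1) to 3.04-fold (Cd74) between the lowest and the highest library, apart from H2-Oa and H2-Ob with 19.5-fold and 13.7-fold. Tumor 9 was the lowest of the 10 tumors for H2-Aa, Cd74, H2-DMa, H2-DMb1 and H2-DMb2, while its summed macrophage genes, 4574 normalized cpm, were the highest, of which 4024 came from the lysozyme gene Lyz2. It is also the library with 27.4% of its reads on Rn45s, whose part in these values was not tested. Without tumor 9, the same 2 genes were called lower by limma, Ciita at -1.23 (adjusted p = 0.0472) and H2-Oa at -2.07 (0.00233). Tumors 8 and 10 came from the same female as tumor 9 and had 427 and 359.7 normalized cpm of H2-Aa against 186 in tumor 9. The SD of log2 H2-Aa was 0.52 between tumors of the same female and 0.18 between the means of the 6 females. For Ciita the SD within a female was 0.11, and between females it was 0.40.

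As a description over the 10 tumors, which share 6 mice, the closest pair was H2-Aa and Cd74 with a Pearson r of 0.98, and H2-DMb1 and H2-DMb2 followed with 0.88. Ciita had an r of 0.14 to 0.43 with the 3 chains and 0.16 with Cd74, and of 0.74 with H2-DMb2, 0.64 with H2-DMb1, 0.64 with H2-Oa, 0.51 with H2-DMa and 0.33 with H2-Ob. The 5 genes outside the class II genes whose levels were most like the mean log2 level of H2-Aa, H2-Ab1 and H2-Eb1 were Plp2 (r = 0.87), Srpk2 (0.85), Leprot (0.84), Podn (0.83) and U2af2 (0.81), out of 11795 genes. By the same measure H2-Aa, which is part of that mean, ranked 5, H2-DMb1 ranked 14, Cd74 57 and Ciita 3508.

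**Figure D5:**
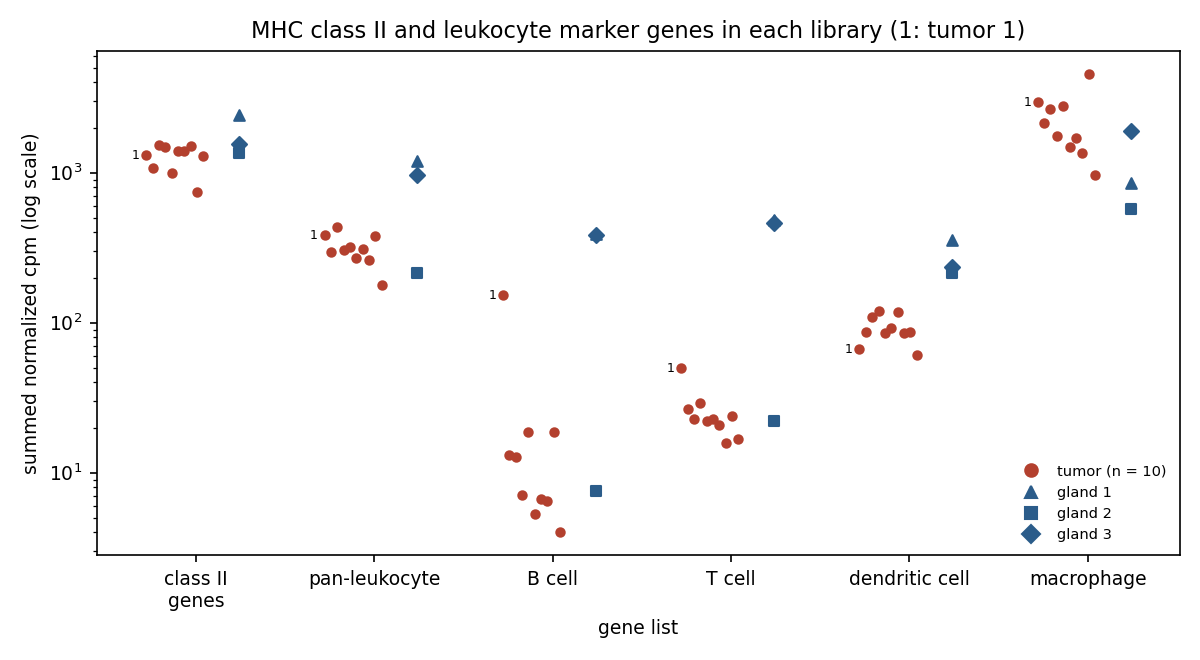
Summed normalized cpm (log scale) of the 10 MHC class II genes and of the leukocyte marker lists in the 10 tumors (circles, in order of their numbers, with tumor 1 marked) and glands 1, 2 and 3. B cell and T cell genes are high in glands 1 and 3 and, for B cell genes, in tumor 1, and the class II sum of gland 2 is inside the tumor range of 743 to 1541.

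Markers of the cells that carry class II moved in different directions, and their part in the class II levels was not tested. Of 10 B cell genes, none of which passed the filter, 7 were called lower by limma without the filter, where 10.1% of all listed genes were. The B cell list summed to 4.002 to 153.2 normalized cpm in the tumors against 393.1, 7.59 and 383.8 in the glands. The B cell genes Ms4a1, Pax5 and Fcer2a were listed at 0 in 4, 5 and 2 tumors. Of 9 listed dendritic cell genes 5 were called lower, among them Zbtb46 (-1.82) and Clec9a (-1.53), both with all 10 tumors below all 3 glands, and Ccr7, the receptor that guides dendritic cells to lymph nodes (-2.84). Of the genes past the filter 6.99% were called lower and 10.2% higher, and of all listed genes 10.1% and 10.5%. Ccr7 had 62.9, 0.620 and 68.5 normalized cpm in glands 1, 2 and 3, and 9 of 10 tumors were above gland 2. In the same list 1 gene was called higher, the integrin Itgax (1.58, limma adjusted p = 0.000163). The list summed to 60.8 to 120 in the tumors and 358, 215 and 235 in the glands. Of the 215 in gland 2, 163 came from the single gene Fscn1, and without it, a step added after the data had been seen, the list summed to 39.9 to 83.4 in the tumors and 119.8, 51.6 and 165 in the glands. Of 12 macrophage genes, 2 were called higher, Fcgr1 (1.45) and Cd68 (1.31), and none lower, where 10.2% of the genes past the filter and 10.5% of all listed genes were called higher. The macrophage list summed to 969 to 4574 in the tumors and 848, 569.5 and 1887 in the glands. Cd207, the langerin of Langerhans cells, was called higher (2.06 ± 0.46, limma adjusted p = 0.00363), and of the other 2 genes of that list Cd1d1 was called lower. Over the means of the 6 tumor-bearing females, Cd74 had a Pearson r of -0.69 with the B cell genes (exact permutation p = 0.0667, adjusted over 4 lists 0.267) and 0.69 with the dendritic cell genes (exact permutation p = 0.149, adjusted 0.297). The Spearman rho was -0.49 and 0.49, each with an exact permutation p of 0.356 and an adjusted p of 0.711, and without the 2 females farthest from the median the Pearson r was -0.43 and -0.49. For T cell and macrophage genes the Pearson r was -0.41 and 0.20 (exact permutation adjusted p of 0.633 and 0.769), the Spearman rho was 0.09 and 0.14 (both adjusted 0.919), and r without the 2 farthest females was 0.24 and 0.22.

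Of 9 lysosomal genes that cut the invariant chain and the antigens or limit that cutting, all past the filter, 3 were called higher, none lower and 6 were not called. Over all genes past the filter, 10.2% were called higher and 6.99% lower. Cathepsin L (Ctsl) rose by 1.30 ± 0.40 on the log2 scale (limma adjusted p = 0.0247). Cathepsin S (Ctss), the main protease of the last invariant chain cut in dendritic and B cells, had 184 to 616 normalized cpm in the tumors and 136, 99.7 and 146 in the glands and rose by 1.20 ± 0.29 (limma adjusted p = 0.00625). Legumain (Lgmn) rose by 1.01 ± 0.20 (limma adjusted p = 0.00159). All 10 tumors were above all 3 glands for both Ctss and Lgmn. Ifi30, the lysosomal thiol reductase, was at -0.76 ± 0.25 with a limma adjusted p of 0.0324 without reaching 2-fold, and 9 of 10 tumors were below all 3 glands.

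The factors that act with or upstream of Ciita were lower or not called. Of 12 promoter factors, 4 were called lower and none higher, where 6.99% of the genes past the filter and 10.1% of all listed genes were called lower. Irf1, an interferon-induced transcription factor, fell by 1.41 ± 0.18 (limma adjusted p = 4.57e-05), and Irf4 fell by 1.72 ± 0.34 without the filter (limma adjusted p = 0.00138). The factors of the X and Y boxes (Rfx5, Rfxap, Rfxank, Nfya, Nfyb, Nfyc and Creb1) had estimates between -0.41 and 0.61 and were not called, and of these Rfxank (0.48) and Nfyb (0.61) had limma adjusted p of 0.0294 and 0.0139 without reaching 2-fold. Of 5 listed genes of the interferon gamma axis, 1 was called lower and none higher: the receptor chain Ifngr1 fell by 1.17 ± 0.18 (limma adjusted p = 0.000248). A single call in 5 genes is to be read against the 6.99% and 10.1% called lower over all genes, and is no result about the axis as a whole. Unlike for Ciita, the 10 tumors were below all 3 glands, gland 2 included, for Irf1 and Ifngr1.

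Of the 3 listed genes that set the turnover of class II at the cell surface (Marchf1, Marchf8 and Cd83), none was called by limma, edgeR or DESeq2. Marchf8, a ubiquitin ligase, was at -0.89 ± 0.15 with a limma adjusted p of 0.000553 without reaching 2-fold, and all 10 tumors were below all 3 glands. It was the only one of the 3 with an unadjusted p under 0.05. Of 5 listed costimulatory and checkpoint ligands, 2 were called lower and none higher: Icosl, the ligand of ICOS, fell by 1.52 ± 0.31 (limma adjusted p = 0.00182), and Cd274, which encodes PD-L1, by 1.58 ± 0.48 without the filter (limma adjusted p = 0.0213). The other 3 had positive estimates and were not called: Cd40 (1.19), Cd86 (0.94) and Cd80 (0.16). Of the genes past the filter 6.99% were called lower, and of all listed genes 10.1%. On the side of the responding T cell, 2 of 5 listed genes were called lower, against the same shares over all genes. Cd4, the coreceptor for class II, had 2.00 to 6.62 normalized cpm in the tumors and 80.3, 7.90 and 49.0 in glands 1, 2 and 3 and fell by 2.77 ± 0.50 (limma adjusted p = 0.000749). Cd28, the receptor of CD80 and CD86, fell by 2.88 ± 0.57 without the filter (limma adjusted p = 0.00145). It had 26.7, 0.878 and 22.3 normalized cpm in glands 1, 2 and 3 and 0.105 to 1.38 in the tumors, so that gland 2 lay inside the tumor range. Of the 10 T cell genes, 9 were called lower, where 6.99% of the genes past the filter and 10.1% of all listed genes were. As with those genes, glands 1 and 3 held most of the Cd4 reads.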

How the data were processed

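Total RNA of 10 mammary tumors (6 females) and 3 FVB mammary glands was sequenced as paired-end reads. The authors used Rsubread for mapping to mm10, featureCounts for the read counts of each gene and edgeR for their normalization. The values deposited by the authors are a signal, read counts divided by a scaled library size (normalized cpm). Dividing by the value of 1 read gave whole read counts for 100% of the values (tolerance 0.01 reads).

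The planned tests were kept: limma 3.58.1 (R 4.3.3, trend on mean expression) on log2(value + 1), with all 13 libraries and no covariate. Genes had to exceed 5 normalized cpm in at least 7 of the 13 libraries, which 11795 of 15213 did. H2-Oa and H2-Ob, and list genes left out by the filter, were taken from the same fit on all genes. A call required a Benjamini-Hochberg adjusted p under 0.05 and a log2 fold change beyond 1. SE and 95% intervals are those of limma, and levels are in normalized cpm. Tumors were taken as separate samples, although some came from the same female.

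Ratios and levels relative to pan-leukocyte genes were compared by exact permutation over the libraries (scipy, Python). Named genes were all class II genes and, per other list, up to 3 called genes with the largest rise and 3 with the largest fall, and the 5 genes most like the chains over the tumors. Other genes named were chosen after their values were seen. Some genes that this rule would name are not reported here. The class II genes and all lists were chosen with earlier results of these data known. Ifng, Pdcd1lg2, Tnfsf4, Cd40lg, Flt3, Xcr1 and Chst4 are on the lists but not among the listed genes, and March1 and March8 were matched under their newer symbols. Exon lengths and transcripts were those of GENCODE M21, and positions and promoters those of RefSeq (GRCm38.p6). edgeR 4.0.16 and DESeq2 1.42.0 on the recovered reads, other scalings, pseudocounts and left-out libraries were alternatives. On simulated counts with 4-fold changes in the tumors against the glands, limma recovered 100% of the 179 changed genes past the filter, with 7 false calls among 12131 genes. The simulated libraries were independent and all genes had the same dispersion. These rates check the code and do not measure the error in these data, where glands stood apart and tumors shared mice. A count of 0 allows up to 3 reads, between 0.128 and 0.683 normalized cpm by library, for counting error only. Libraries differed pairwise by a chi-square per gene of at least 20.4, far above sampling noise. The methods name a core facility at UNMC for library construction and sequencing, whereas the labels of all samples name both UNMC and Novogene and do not say which libraries were handled where, so no batch was assigned.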

Additional observations from a re-analysis of the deposited data

Results flagged for a closer look

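Among the 10 tumors, 25 measures were checked for a single library that stands apart by Dixon's test, and 7 were found. The test flags about 1 in 20 measures by chance if values are normally distributed. Levels were tested without a log and some measures share genes, so the 7 cannot be read against that rate. H2-Oa in tumor 1 was 4.44 normalized cpm and H2-Ob in tumor 1 was 19.4, each far above the next tumor, and the log2 ratio of H2-Ob to H2-DMb1 was highest in the same tumor with -1.03. The summed B cell genes of tumor 1 were 153.2 normalized cpm and its summed T cell genes 50.3, both the highest of the tumors. The log2 ratio of H2-DMb1 to H2-DMa was lowest in tumor 6 with 0.40. The summed lymph node stroma genes were highest in tumor 6 with 3202 normalized cpm, nearly all of it from Glycam1, which the mammary gland also secretes into milk.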

How the results depend on the processing

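H2-Oa kept its call in every alternative fit except the replicate block and the fits without glands 1 and 3. Cpm without the further factor moved the median log2 change of the genes past the filter by 0.31, scaling to the 8 epithelial genes by -1.35 and scaling to the pan-leukocyte genes by 0.96, and class II changes are to be read against these shifts. The genes called were 1864 higher and 495 lower without the factor, 406 and 8115 with the epithelial scaling and 3954 and 181 with the pan-leukocyte scaling, and 1538 were lower with no filter. Class II genes called lower numbered 1 without the factor, 9 with the epithelial scaling, and 1 with the pan-leukocyte scaling, where 1 (H2-DMb1) was called higher. They numbered 1 with a mean per mouse, 1 without the mouse of tumors 8, 9 and 10, 0 without glands 1 and 3 and 0 without tumor 1 as well. Without the factor H2-Aa turned to 0.049, H2-Ab1 to 0.020 and H2-DMa to 0.012. With the pan-leukocyte scaling H2-Aa turned to 0.76, H2-Ab1 to 0.73, H2-Eb1 to 0.43, H2-DMa to 0.68, H2-DMb2 to 0.54 and Cd74 to 0.42, and with the epithelial scaling H2-DMb1 turned to -0.93. Without glands 1 and 3 (and without tumor 1 as well) H2-Aa was 0.11 (0.12), H2-Ab1 0.15 (0.095), H2-DMa 0.55 (0.50), H2-DMb2 0.73 (0.68), H2-Ob 1.18 (0.94) and Ciita 0.32 (0.25). The cause of these differences was not tested.

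Tumors and glands with the same replicate number had deviations with r of -0.58, 0.04 and -0.66. Pairs with different numbers were not compared, so these values cannot show whether the numbers paired the samples. The tumors and the glands came from different mice. With the replicate block, 362 genes were called higher and 182 lower, and of the class II genes 0 lower, with Ciita at -0.85 and H2-Oa at -1.75. Only the numbers 1, 2 and 3 occur in both groups, so the other tumors did not enter the change in that fit. Its lost calls therefore do not bear on the whole set of tumors. The mouse as a correlated block (consensus correlation 0.0477) changed no class II call.

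Leaving out 1 library gave 977 to 1506 genes higher, 659 to 1121 lower, 0 class II genes higher and 1 to 4 lower, 0 to 5 ratios past the threshold (0 without gland 1) and 0 to 7 genes past it relative to the pan-leukocyte genes (7 without gland 2, 2 without tumor 1 and 2 without tumor 9). A mean per mouse left 3 ratios, and a pseudocount of 0.5 gave 1 gene relative to the pan-leukocyte genes. The log2 change of H2-DMa ranged from -0.73 to 0.015, and the log2 ratio of H2-Ab1 to H2-Aa from -0.15 to 0.13 and of H2-DMa to H2-Aa from -0.25 to 0.099, with 0.026 for the last by mean per mouse. Cd74 relative to the pan-leukocyte genes ranged from -0.14 to 1.10. Over 10 tumors as separate points, Cd74 had an r of -0.14 with dendritic cell and -0.12 with macrophage genes. Depth limits H2-Oa most, with 2 reads in tumor 5, where 3 reads are 0.342 normalized cpm.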
